A study of Mus musculus with 127 samples.

Results

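The receptors for lipopolysaccharide (LPS) and Pam3csk4 are 6 genes, Tlr2, Tlr1, Tlr6, Tlr4, Ly96 and Cd14, chosen by name out of 23366 gene symbols in the deposited table. All 6 had a row in the table and passed the filter on low counts in every main fit, though not in every alternative one. They were followed in bulk RNA of 3 populations that had been sorted from mouse bone marrow by surface markers: blood stem cells of the long-term (LT) and of the short-term kind (ST), and multipotent progenitors (here MPP). SMART-seq2 was used, which copies polyadenylated RNA of few cells into cDNA over its whole length. The stimulated course held young mice 1, 2 and 3 and old mouse 2, whose cells grew with both 100 ng/ml LPS and 1 ug/ml Pam3csk4 and were taken at 0, 0.5, 1, 2, 4, 8 and 12 h. The unstimulated course, in the same kind of medium with neither ligand, held young mouse 4 and old mouse 4 and was sampled at 0, 2, 4 and 8 h. The labels give age only as young or old, name no strain, sex or genotype, and describe no course with 1 ligand alone, so the parts of LPS and Pam3csk4 cannot be told apart. The ligand was given to other mice than the medium alone, and only 1 old mouse received it. The column names give each mouse with ligand its own date, in July for young mouse 3 and in April for the others. Those of the mice without ligand hold no date. The titles do not say what a date stands for.

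Toll-like receptors are membrane proteins that recognise microbial molecules and signal through the adaptor Myd88 and the IRAK kinases to the transcription factor NF-kB. Tlr4 recognises LPS only together with Ly96, also called MD-2, a small secreted protein that holds the lipid, while Cd14, a lipid-anchored surface protein, hands LPS over to this complex. Tlr2 pairs with Tlr1 to bind triacylated lipopeptides, of which Pam3csk4 is a synthetic example, and with Tlr6 to bind diacylated ones. Blood stem and progenitor cells are known to carry Toll-like receptors and to respond to their ligands directly.

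Promoter sequences of RefSeq (GRCm38.p6) were searched for 3 of the 6 genes, and those of Cd14, Tlr4 and Ly96 were not searched. Shown are the 250 bases before the first listed start of Tlr2, the chain shared by both lipopeptide receptors, and of its partners Tlr1 and Tlr6. Capitals mark letters that match the NF-kB consensus, searched on both strands. The windows are the minus strand of chr3:83841609-83841858 for Tlr2, chr5:64933559-64933808 for Tlr1 and chr5:64960049-64960298 for Tlr6.
Tlr2: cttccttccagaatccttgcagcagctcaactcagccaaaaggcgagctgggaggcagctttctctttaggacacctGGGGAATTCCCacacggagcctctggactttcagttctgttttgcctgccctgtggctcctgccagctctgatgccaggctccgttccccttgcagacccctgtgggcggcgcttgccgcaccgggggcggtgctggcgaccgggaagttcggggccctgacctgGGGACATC
Tlr1: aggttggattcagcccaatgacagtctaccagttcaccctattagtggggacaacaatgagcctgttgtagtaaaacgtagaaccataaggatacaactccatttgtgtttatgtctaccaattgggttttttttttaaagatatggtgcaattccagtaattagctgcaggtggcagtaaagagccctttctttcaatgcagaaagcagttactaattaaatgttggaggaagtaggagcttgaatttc
Tlr6: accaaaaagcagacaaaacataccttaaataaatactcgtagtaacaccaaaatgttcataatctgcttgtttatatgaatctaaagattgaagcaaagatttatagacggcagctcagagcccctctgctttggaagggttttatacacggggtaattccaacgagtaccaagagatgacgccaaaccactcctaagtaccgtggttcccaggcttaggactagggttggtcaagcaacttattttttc
The Tlr2 promoter held 3 matches, at positions -173, -172 and -8 from the start. The first and the second overlap, and the last runs past the end of the stretch printed here. The Tlr1 and Tlr6 windows held 0 matches at the starts shown and at the other listed start of each gene. Of 32851 promoter windows of 300 bases in the same table, 4.5% held the consensus. A match describes letters and is not evidence of binding.

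The 108 libraries, each from 1 mouse, cell type and time after technical repeats were summed, held 990801 to 11764630 counts (median 4200713), and 6241 to 14096 genes had a count. Stimulated libraries were deeper, with medians of 4267471 counts in LT, 4876301 in ST and 4622624 in MPP, against 1934675, 2169141 and 2355356 without ligand. The stem and progenitor genes Kit and Ly6a had counts in every library, while Slamf1, a surface marker of LT, was at 0 in 69 of 108. Transcripts of neutrophil granules (S100a8, S100a9, Ngp, Camp, Ltf and Lcn2) summed to 5640 to 78560 counts per 1e6 counts of the library (CPM) in the libraries of every mouse but young mouse 3. In young mouse 3 they summed to 24.8 to 2004 CPM. The summed level of 10 monocyte and macrophage markers, among them Csf1r, Ly6c2 and Ccr2, was 8.76 to 694 CPM in young mouse 3, 565 to 2569 CPM in young mice 1 and 2, 178 to 1581 CPM in old mouse 2 and 257 to 2829 CPM in the mice without ligand. All 10 markers had a count in every mouse. The 9 stem and progenitor markers, Slamf1 among them, summed to 1441 to 4494 CPM in young mouse 3. Their sums were 190 to 1755 CPM in young mouse 1 and 607 to 2146 CPM in young mouse 2. In old mouse 2 they were 960 to 3445 CPM. The mice without ligand had 228 to 604 CPM (young mouse 4) and 356 to 1002 CPM (old mouse 4). In bulk RNA, more cells of a type that expresses a gene and more RNA per cell cannot be told apart.

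At 0 h, before culture, the receptors were low. Per kilobase of the longest coding transcript, LT of the 4 young mice held Ly96 at 14.4 ± 6.94 CPM per kb (mean ± SD, n = 4), Tlr2 at 12.1 ± 4.66, Cd14 at 6.71 ± 9.98, Tlr4 at 5.11 ± 5.60, Tlr6 at 1.59 ± 1.88 and Tlr1 at 1.57 ± 3.15. In LT the values of Ly96 (9.68 to 24.7) and of Tlr2 (7.60 to 18.5) lay above all values of Tlr1 (0 to 6.29) and Tlr6 (0 to 4.30), and neighbours in this order overlapped. In ST the order was Tlr2 (19.7 ± 12.6 CPM per kb), Ly96 (8.20 ± 4.60), Tlr4 (6.99 ± 4.68), Cd14 (3.96 ± 3.49), Tlr6 (1.82 ± 1.83) and Tlr1 (0.866 ± 1.12). In MPP it was Tlr2 (13.8 ± 6.81 CPM per kb), Ly96 (7.75 ± 4.46), Tlr4 (5.42 ± 1.84), Tlr6 (2.55 ± 1.17), Cd14 (2.33 ± 1.15) and Tlr1 (1.32 ± 1.43). In the young mice the mean level of Tlr2 per length thus stood above those of its lipopeptide partners in all 3 populations. The order turned in some populations of the old mice, where ST of old mouse 2 had Tlr2 at 0.0353 and Tlr6 at 9.47 CPM per kb, and LT of old mouse 4 had Tlr2 at 6.04 and Tlr6 at 13.01 CPM per kb. Tlr1 and Tlr6 are near-identical in part: 15.3% of the 50-base stretches of the longest Tlr1 transcript and 12.5% of those of Tlr6 occur in another of the 6 receptors, against 0 for the other 4 genes. Of the deposited expected counts, 57.5% were whole numbers for Tlr1 and 55.9% for Tlr6, against 82.7% to 96.1% for the others, so how reads were split between these neighbours on chromosome 5 is uncertain.

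No receptor passed the test of a difference between the cell types at 0 h. In young mice 1 to 4, 0 of 18 tests of 6 genes over 3 pairs of cell types passed by edgeR at an adjusted p of 0.05, 0 had an unadjusted p under 0.05, and DESeq2 also called 0, against 0.0% of all genes called. Tlr2 was at 36.4 ± 14.04 CPM in LT, 59.3 ± 37.9 in ST and 41.5 ± 20.5 in MPP (SD, n = 4), with a log2 difference of -0.69 ± 0.53 (SE) for LT against ST. Tlr4 was at 20.8 ± 22.8, 28.5 ± 19.1 and 22.1 ± 7.50 CPM in the same order. Old mice 2 and 4 had Tlr2 at 28.3 and 18.2 CPM in LT, 0.106 and 113 CPM in ST, and 19.9 and 14.7 CPM in MPP. Against the young mice, 0 of 18 tests of age passed by edgeR and 0 by DESeq2, 1 had an unadjusted p under 0.05 by edgeR, and 0.0% of all genes were called. That 1 was Cd14 in ST, at 0.213 and 0 CPM in the old mice against 0 to 13.5 CPM in the young ones (adjusted p = 1.0).

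Cd14, which delivers LPS to the Tlr4 complex, reached the highest level of the 6 receptors in culture, at 1512 CPM in ST of young mouse 1. It was not the highest in every library: in MPP of young mouse 3 it reached 68.2 CPM, against 234 CPM for Tlr1 and 107 CPM for Tlr2. In LT with ligand, young mouse 1 had Cd14 at 0.488 CPM at 0 h, 239 at 0.5 h, 1224 at 1 h, 1274 at 2 h, 814 at 4 h, 789 at 8 h and 1280.0 at 12 h. Young mouse 2 had 6.38, 192, 530.0, 878, 916, 619.9 and 750.5 CPM at the same times. Young mouse 3 had 1.91, 5.98, 35.0, 30.3, 16.9, 3.72 and 16.2 CPM. Mice 1 and 2 were thus at 192 CPM or more from 0.5 h on, and mouse 3 was at 35.0 CPM or less throughout. At 2 h LT of mouse 1 held 42.0 times and LT of mouse 2 held 28.9 times the Cd14 level of mouse 3.

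In ST, Cd14 in young mouse 1 was at 13.5, 384, 1043, 1512, 797, 843 and 749.9 CPM at 0, 0.5, 1, 2, 4, 8 and 12 h. In young mouse 2 it was at 4.39, 162, 398, 720.2, 898, 630.4 and 662 CPM, and in young mouse 3 at 0, 6.01, 45.9, 32.9, 25.1, 16.1 and 29.3 CPM. The order of the mice was the same as in LT at most times, with mouse 3 lowest at each. In MPP it was at 5.24, 88.9, 322, 529, 625, 576 and 553 CPM in mouse 1 and at 3.55, 54.9, 224, 466, 524, 438 and 439 CPM in mouse 2. Young mouse 3 had 1.24, 12.4, 56.9, 53.2, 43.2, 68.2 and 49.96 CPM in MPP. There its distance from mouse 1 was smaller than in LT and ST, with a ratio of mouse 1 to mouse 3 of 5.65 to 14.5 over the 6 times, against 35.0 to 212 in LT and 22.7 to 63.9 in ST.

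**Figure D1:**
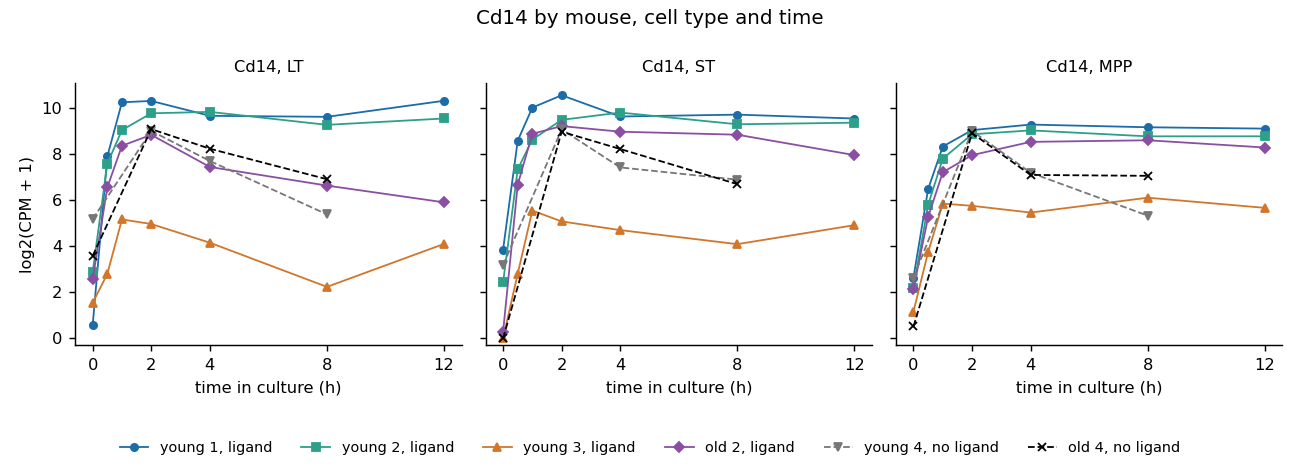
Cd14 as log2(CPM + 1) on the vertical axis against time in culture in hours, in LT, ST and MPP; each line is 1 mouse, solid with ligand and dashed without. At 0 h every value is 35.3 CPM or less; with ligand, young mice 1 and 2 stay high to 12 h, old mouse 2 does so in ST and MPP but drops in LT, young mouse 3 lies far below them, and both mice without ligand are at 482 to 545 CPM at 2 h and lower at 8 h.

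All 3 young mice with ligand had more Cd14 than any of them at 0 h at 1, 2, 4 and 12 h in LT, at 1, 2, 4, 8 and 12 h in ST and at all 6 times in MPP. The groups overlapped at 0.5 h in LT and ST and at 8 h in LT, through young mouse 3. Of 10245 genes with a mean of at least 5 CPM, the share likewise higher in all 3 mice at 0.5, 1, 2, 4, 8 and 12 h was 3.3%, 4.23%, 4.54%, 3.93%, 3.67% and 3.75% in LT, 4.03%, 5.9%, 6.98%, 5.05%, 4.73% and 3.76% in ST, and 4.19%, 7.36%, 9.45%, 9.42%, 7.89% and 7.86% in MPP. The fitted log2 change at 2 h was 7.90 ± 2.11 (SE) in LT, 7.06 ± 2.03 in ST and 6.89 ± 2.02 in MPP. Without a term for the mouse none of these passed in edgeR's quasi-likelihood test (adjusted p = 0.11, 0.19 and 0.25). Over the 6 receptors, 3 cell types and 6 times, 0 of 108 changes passed and 26 had an unadjusted p under 0.05, of which 18 were Cd14, 6 Tlr1 and 2 Tlr2; DESeq2 called 20. Of all 13678 genes tested, edgeR called 0.154%, 0.256%, 0.307%, 0.271%, 0.285% and 0.241% at 0.5, 1, 2, 4, 8 and 12 h in LT, 0.146%, 0.3%, 0.307%, 0.271%, 0.263% and 0.446% in ST, and 0.095%, 0.234%, 0.263%, 0.344%, 0.314% and 0.314% in MPP.

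The same mouse gave all 3 cell types and all times, so the mouse can be taken as a block, which compares each mouse with its own 0 h libraries. With this block Cd14 rose at all 6 times in all 3 cell types, 18 of the 108 receptor tests. The share of all genes called by edgeR with the block was 0.219%, 0.49%, 0.738%, 0.914%, 1.21% and 0.833% from 0.5 to 12 h in LT, 0.241%, 0.563%, 0.804%, 0.695%, 0.914% and 1.97% in ST, and 0.175%, 0.402%, 0.636%, 0.79%, 0.826% and 1.1% in MPP. At 2 h the log2 change was 6.71 ± 0.99 in LT (adjusted p = 2.0e-05), 7.09 ± 0.96 in ST (adjusted p = 4.0e-06) and 6.75 ± 0.99 in MPP (adjusted p = 1.4e-05). The smallest rise was 4.14 ± 0.91 at 0.5 h in MPP (adjusted p = 0.024). Without young mouse 3 and without the block, all 18 Cd14 changes passed as well (edgeR, adjusted p from 5.6e-07 to 0.0091). Without young mouse 1 instead, 0 of the 18 passed (edgeR, lowest adjusted p = 0.32). Leaving out young mouse 2 also gave 0 of 18 (edgeR, lowest adjusted p = 0.65). Each of these fits rests on 2 mice, and the share of all genes called in them is not given. Young mouse 3 also had the lowest granule and monocyte marker sums given above, and the part of these cells' RNA in its Cd14 level was not tested. Its column names also hold another month than those of the other mice with ligand, and mouse and date cannot be told apart.

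**Figure D2:**
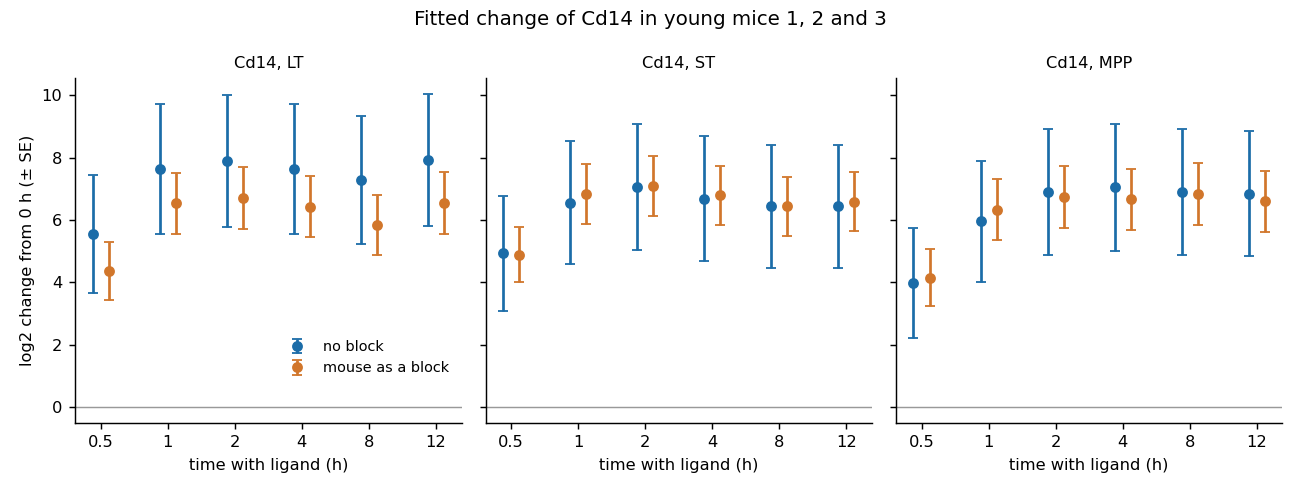
Fitted log2 change of Cd14 from 0 h (vertical axis) at each time with ligand in hours (horizontal axis), in young mice 1, 2 and 3, for LT, ST and MPP; points are edgeR estimates and bars their SE, in blue without a block and in orange with mouse as a block. The estimates of both fits lie between 3.99 and 7.93, and the bars with the block are shorter at every time.

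Cd14 was also higher in culture without ligand. In young mouse 4, LT held 35.3 CPM at 0 h, 516 at 2 h, 208 at 4 h and 40.9 at 8 h, and in old mouse 4 11.0, 545, 302 and 119.8 CPM. In ST the values were 8.08, 541, 171 and 118 CPM in young mouse 4 and 0, 504, 299 and 103 CPM in old mouse 4. In MPP they were 5.22, 515, 146 and 39.3 CPM in young mouse 4 and 0.433, 482, 136 and 133 CPM in old mouse 4. Every one of the 6 cell populations without ligand was thus at 482 to 545 CPM at 2 h and lower at 4 and 8 h. At 2 h the mean was 531 ± 20.2 CPM in LT without ligand (SD, n = 2) and 660.1 ± 536 CPM with it (n = 4, young mice 1, 2 and 3 and old mouse 2), and in MPP 499 ± 23.0 against 324 ± 217 CPM.

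Without ligand 0 of 54 receptor changes at single times passed in edgeR, 8 had an unadjusted p under 0.05, and DESeq2 called 8. Of all genes, edgeR called 0.0139%, 0.0903% and 0.201% at 2, 4 and 8 h in LT, 0.0208%, 0.125% and 0.236% in ST, and 0.0417%, 0.111% and 0.236% in MPP. With mouse as a block Cd14 rose without ligand at 2, 4 and 8 h in ST and MPP, 6 of the 54 tests. Of all genes, the block called 0.0903%, 0.424% and 1.05% in LT, 0.257%, 0.493% and 0.875% in ST, and 0.167%, 0.59% and 1.01% in MPP. The blocked log2 change at 2 h was 7.21 ± 1.27 in ST (adjusted p = 0.0015), 7.65 ± 1.30 in MPP (adjusted p = 6.8e-04) and 4.76 ± 1.12 in LT (adjusted p = 0.070). Over the 3 times together Cd14 passed with the block in LT (adjusted p = 0.043), ST (adjusted p = 0.0026) and MPP (adjusted p = 0.0011), where 0.715%, 0.75% and 0.743% of genes were called. Without the block 0 of 18 such tests passed, 3 had an unadjusted p under 0.05, DESeq2 called 1, and edgeR called 0.104%, 0.181% and 0.118% of all genes in LT, ST and MPP.

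The test of the difference, the change with ligand minus the change without, found no receptor. At single times 0 of 54 tests passed in edgeR without the block and 0 with it. An unadjusted p under 0.05 was seen in 2 and 4, in that order. DESeq2 called 3, all Tlr1, in LT at 2 and 4 h and in ST at 2 h. In each of these, Tlr1 was at 0 in all mice of 1 course. Without the block, 0.0%, 0.0% and 0.0347% of all genes were called at 2, 4 and 8 h in LT, 0.0139%, 0.00694% and 0.0903% in ST, and 0.00694%, 0.0278% and 0.0625% in MPP. With it, 0.0%, 0.00694% and 0.104% were called in LT, 0.0208%, 0.0208% and 0.347% in ST, and 0.0208%, 0.0903% and 0.292% in MPP. Over these 3 times together 0 of 18 receptor tests passed with or without the block, 1 had an unadjusted p under 0.05 without it and 2 with it, and DESeq2 called 0, with 0.0%, 0.0486% and 0.0347% of all genes called in LT, ST and MPP without the block and 0.0833%, 0.264% and 0.208% with it. For Cd14 in LT the difference was 4.94 ± 2.06 on the log2 scale at 8 h (adjusted p = 0.91), and 3.63 ± 1.30 with the block (adjusted p = 0.49). In MPP at 2 h it was -0.74 ± 2.01, and at 8 h 1.85 ± 2.04 (adjusted p = 1.0 for both). No ligand effect on Cd14 passed in these tests, and each course was run in different animals.

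In ST and MPP, but not in LT, the ratio of Cd14 at 8 h to 2 h did not overlap between the courses. This contrast was chosen after its values were seen and is given without a test. Without ligand, Cd14 at 8 h was 0.0792 times its 2 h level in LT, 0.218 in ST and 0.0764 in MPP of young mouse 4, and 0.220, 0.205 and 0.275 in old mouse 4. With ligand the ratio in MPP was 1.09, 0.940 and 1.28 in young mice 1, 2 and 3 and 1.57 in old mouse 2. In ST it was 0.558, 0.875, 0.490 and 0.771 in the same order. These values lie above both mice without ligand in ST and MPP, a pattern that 12.5% of 10163 genes shared in ST and 20.1% in MPP (10.0% in LT). In LT the ratio with ligand was 0.619, 0.706, 0.123 and 0.215, and overlapped the values without ligand. In ST and MPP, monocyte and macrophage markers summed to less at 8 h than at 2 h without ligand. With ligand their sums rose in ST and MPP of all 4 mice, and Cd14 fell in ST of all 4 and in MPP of young mouse 2. In ST their sums at 2 and 8 h were 1001 and 414 CPM without ligand in the young mouse and 1873 and 363 CPM in the old one, but 1491 and 2064, 746 and 1445, and 23.4 and 251 CPM in the 3 young mice with ligand and 748 and 1132 CPM in old mouse 2. In MPP their sums at 2 and 8 h were 1229 and 323 CPM for young mouse 4 and 1438 and 541 CPM for old mouse 4. With ligand they were 912 and 1841, 565 and 1185, and 152 and 550.2 CPM in young mice 1, 2 and 3. Old mouse 2 had 568 and 852 CPM. In LT of young mouse 1, with ligand, their sums at 2 and 8 h were 1768 and 1476 CPM. Young mouse 2 had 1281 and 1195 CPM, young mouse 3 had 15.2 and 130 CPM and old mouse 2 had 291 and 178 CPM. Without ligand, LT had 1153 and 257 CPM in young mouse 4 and 1808 and 505 CPM in old mouse 4. The part of these markers' cells in the Cd14 ratio was not tested.

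**Figure D3:**
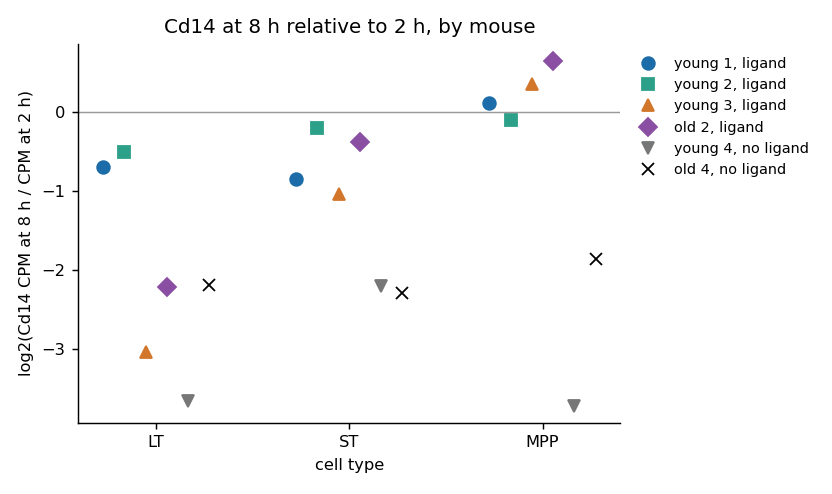
Log2 of the ratio of Cd14 CPM at 8 h to CPM at 2 h (vertical axis) for each mouse in LT, ST and MPP (horizontal axis); coloured points had ligand, grey and black points had none, and the line marks equal levels. In MPP the 4 mice with ligand lie near the line and both mice without ligand lie well below it, while in LT young mouse 3 and old mouse 2 lie among the mice without ligand.

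Old mouse 2, the only old mouse with ligand, had Cd14 at 4.94, 93.5, 329.7, 458, 174, 98.7 and 59.2 CPM in LT from 0 to 12 h. In ST it had 0.213, 102, 473, 597, 504, 460.2 and 249 CPM, and in MPP 3.48, 37.7, 148, 248, 371, 389 and 313 CPM. Its levels lay between young mouse 3 and young mouse 2 at every time from 0.5 h in LT, and its highest LT value was at 2 h, against 12 h in young mouse 1, 4 h in young mouse 2 and 1 h in young mouse 3. With 1 mouse, no test of age in the stimulated course was made.

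Tlr2, the chain common to both lipopeptide receptors, was at 0 in 2 of 108 libraries, as was Cd14, the fewest of the 6 receptors. In LT young mouse 1 had Tlr2 at 22.9, 261, 532, 391, 103, 121 and 167 CPM from 0 to 12 h, and young mouse 2 had 30.7, 47.9, 244, 162, 104, 137 and 0 CPM. Young mouse 3 had 36.4, 8.97, 26.4, 18.2, 50.6, 100.0 and 39.2 CPM. The values of mice 1 and 2 were highest at 1 h, when mouse 3 was below its own 0 h value. The 0 of mouse 2 at 12 h and that of mouse 1 in ST at 4 h stand beside 137 to 193 CPM in the libraries next to them in time, and 3 counts would have been 0.530 to 0.786 CPM there.

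In ST, Tlr2 was at 116, 348, 713, 193, 0, 155 and 194 CPM in young mouse 1 and at 43.5, 36.6, 309, 189.6, 154, 116 and 128 CPM in young mouse 2. Young mouse 3 had 32.6, 10.7, 24.7, 62.8, 80.2, 78.2 and 98.9 CPM. In MPP, mouse 1 had 40.0, 151, 260.1, 232, 147, 100.1 and 377 CPM, mouse 2 had 33.9, 62.8, 159.8, 146, 147, 124 and 100.5 CPM and mouse 3 had 21.9, 12.7, 45.3, 69.9, 80.7, 79.4 and 107 CPM. An early high point at 1 h thus appeared in mice 1 and 2 in LT and ST, whereas mouse 3 had its highest values at 8 or 12 h in all 3 cell types. In MPP all 3 mice were above all 0 h values from 1 h to 12 h, as 7.36% to 9.45% of genes were at those times.

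No Tlr2 change passed the test. The largest was 3.17 ± 1.36 (log2, SE) in LT at 1 h, with an unadjusted p of 0.024 and an adjusted p of 0.80 by edgeR, and with mouse as a block it was 2.35 ± 1.13 (adjusted p = 0.53). In MPP at 12 h it was 2.80 ± 1.34 (adjusted p = 1.0), and 2.52 ± 1.13 with the block (adjusted p = 0.38). Old mouse 2 had Tlr2 at 28.3, 103, 132, 139, 63.0, 123 and 54.8 CPM in LT and at 0.106, 42.5, 226, 82.2, 88.1, 203 and 48.1 CPM in ST. Without ligand Tlr2 in LT was at 55.8, 59.9, 32.2 and 52.3 CPM at 0, 2, 4 and 8 h in young mouse 4 and at 18.2, 81.9, 76.6 and 92.8 CPM in old mouse 4. In MPP without ligand it was at 70.1, 74.9, 37.5 and 44.1 CPM in young mouse 4 and at 14.7, 8.30, 20.8 and 36.1 CPM in old mouse 4. No 1 h library without ligand was analysed here, so the early Tlr2 values have no counterpart there. In MPP at 8 h Tlr2 was at 100.4 ± 18.4 CPM with ligand (SD, n = 4) and 40.1 ± 5.66 CPM without (n = 2), and the difference of the changes was 1.86 ± 1.53 (log2, SE, adjusted p = 1.0).

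**Figure D4:**
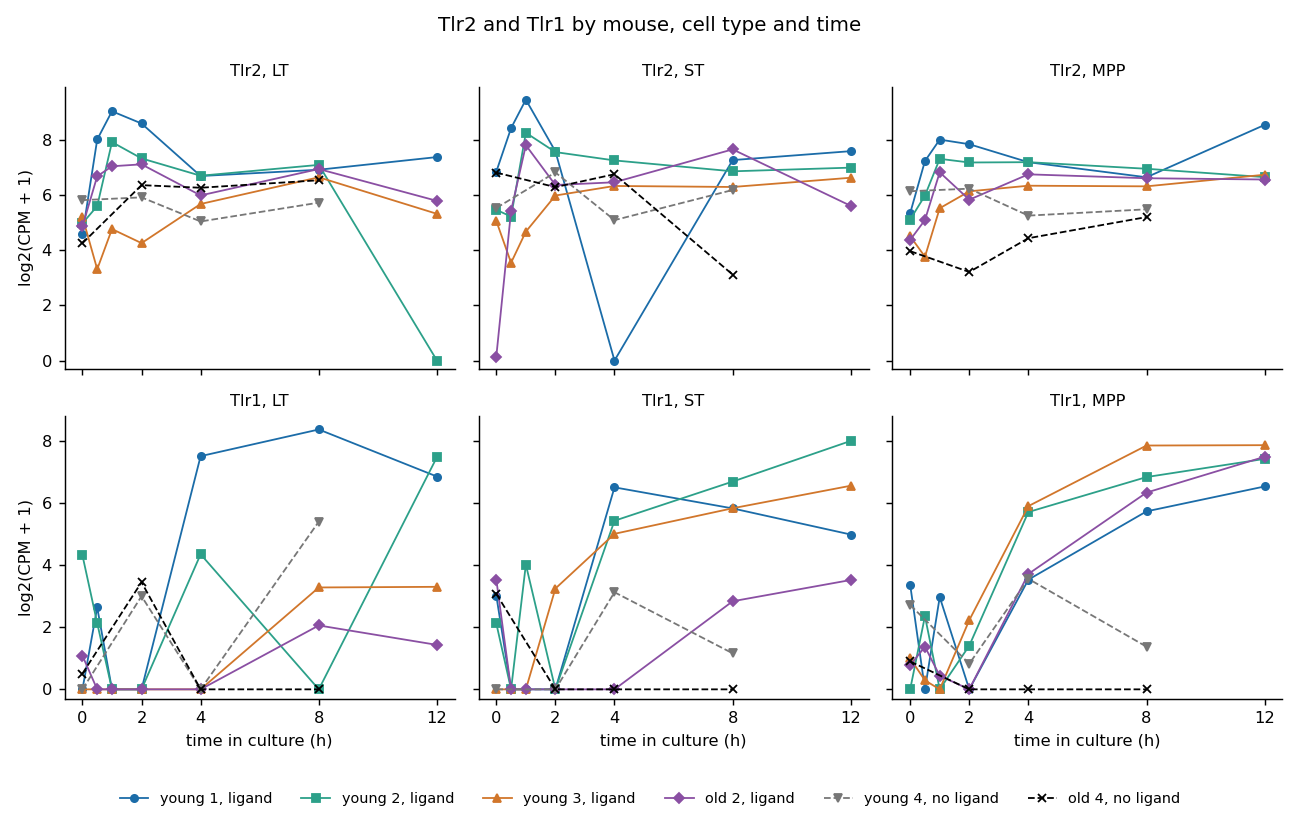
Tlr2 (upper row) and Tlr1 (lower row) as log2(CPM + 1) on the vertical axis against time in culture in hours, in LT, ST and MPP; each line is 1 mouse, solid with ligand and dashed without. Tlr2 is highest at 1 h in young mice 1 and 2 in LT and ST, and Tlr1 in MPP is low to 2 h and higher from 4 h on in all 4 mice with ligand, at 92.3 to 234 CPM at 12 h, with both mice without ligand at 0 to 1.59 CPM at 8 h.

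Tlr1, the partner of Tlr2 for triacylated lipopeptides, was low at 0 h and high late in the stimulated course. In MPP, young mouse 1 had Tlr1 at 9.37, 0, 6.87, 0, 10.6, 52.5 and 92.3 CPM from 0 to 12 h, young mouse 2 at 0, 4.13, 0, 1.66, 51.7, 114 and 172 CPM, and young mouse 3 at 0.995, 0.222, 0, 3.69, 59.1, 232 and 234 CPM. Old mouse 2 had 0.717, 1.59, 0.356, 0, 12.2, 80.4 and 180.3 CPM. All 4 mice were above every 0 h value from 4 h on, as were 7.57%, 6.57% and 6.34% of 10296 genes at 4, 8 and 12 h. Young mouse 3, which had the lowest Cd14 of the 4 in MPP at each time, had the highest Tlr1 there at 4, 8 and 12 h. Without ligand MPP had Tlr1 at 5.60, 0.772, 10.8 and 1.59 CPM at 0, 2, 4 and 8 h in young mouse 4 and at 0.866, 0, 0 and 0 CPM in old mouse 4.

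In ST, Tlr1 was at 7.12, 0, 0, 0, 90.5, 56.1 and 30.8 CPM in young mouse 1, at 3.36, 0, 15.3, 0, 42.4, 103 and 258 CPM in young mouse 2 and at 0, 0, 0, 8.52, 31.4, 56.3 and 93.9 CPM in young mouse 3. The 3 young mice were above all 0 h values from 4 h on, as 5.05%, 4.73% and 3.76% of genes were at 4, 8 and 12 h. Old mouse 2 did not follow, with 10.7 CPM at 0 h, 0 from 0.5 to 4 h, 6.17 at 8 h and 10.5 at 12 h. In LT, Tlr1 was at 0, 5.25, 0, 0, 183, 332 and 115 CPM in young mouse 1 and at 19.0, 3.39, 0, 0, 19.5, 0 and 179 CPM in young mouse 2. Young mouse 3 was at 0 up to 4 h and then at 8.76 and 8.89 CPM, and old mouse 2 had 1.12 CPM at 0 h, 0 from 0.5 to 4 h, and then 3.17 and 1.70 CPM. At 12 h the 4 mice thus spanned 1.70 to 179 CPM in LT and 92.3 to 234 CPM in MPP. Tlr1 was at 0 in 19 LT, 17 ST and 9 MPP libraries of 36 each, where 3 counts would have been 0.300 to 2.19 CPM.

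Over the whole course, 0 of 18 receptor tests passed in edgeR without a block, 5 had an unadjusted p under 0.05, DESeq2 called 2, and edgeR called 1.17%, 0.848% and 0.695% of all genes in LT, ST and MPP. Tlr1 in LT came nearest (adjusted p = 0.061), with ST at 0.24 and MPP at 0.52, and Cd14 was at adjusted p = 0.22, 0.44 and 0.95 in LT, ST and MPP. With mouse as a block 4 of the 18 passed, where 7.15%, 6.28% and 3.25% of all genes were called. These were Cd14 in LT (adjusted p = 1.8e-04), ST (adjusted p = 6.2e-05) and MPP (adjusted p = 6.6e-05), and Tlr1 in LT (adjusted p = 0.031). The blocked test of Tlr1 missed the threshold in ST (adjusted p = 0.082) and MPP (adjusted p = 0.11).

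At single times no Tlr1 change passed in edgeR, with or without the block. In MPP the log2 change was 5.34 ± 2.54 at 8 h and 5.67 ± 2.58 at 12 h (SE, adjusted p = 1.0 for both), and with the block 6.04 ± 2.64 (adjusted p = 0.39) and 6.22 ± 2.65 (adjusted p = 0.35). Against the course without ligand, the difference at 8 h in MPP was 7.34 ± 3.95 (adjusted p = 1.0), and 8.53 ± 4.01 with the block (adjusted p = 0.81). At 8 h MPP with ligand had Tlr1 at 119.7 ± 79.0 CPM (SD, n = 4) and MPP without it at 0.797 ± 1.13 CPM (n = 2). These groups did not overlap, and 20.6% of 10163 genes were likewise higher in all 4 mice with ligand. From 2 to 8 h the difference in log2(CPM + 1) of Tlr1 was higher in all 4 mice with ligand than in both without in ST and in MPP, as for Cd14, and not in LT. The same held for 12.5% of 10163 genes in ST and 20.1% in MPP. This contrast was chosen after the Cd14 values were seen and carries no test.

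Tlr6, the partner of Tlr2 for diacylated lipopeptides, showed no common course. In MPP it was at 8.34, 6.06 and 7.47 CPM at 0 h and at 22.6, 21.0 and 12.9 CPM at 12 h in young mice 1, 2 and 3, so that these groups did not overlap, as 7.86% of genes at 12 h in MPP. The log2 change there was 1.53 ± 2.34 (SE, edgeR, adjusted p = 1.0). In LT Tlr6 was at 0 in 9 of 36 libraries, and young mouse 1 alternated between 0 and 75.6 CPM. Without ligand ST of young mouse 4 had Tlr6 at 3.23, 31.6, 89.5 and 106 CPM at 0, 2, 4 and 8 h, and ST of old mouse 4 had 41.4, 10.6, 0 and 48.0 CPM. These 2 mice did not move alike. With ligand, Tlr6 in LT at 8 h was at 0, 6.99 and 3.50 CPM in the young mice and 27.9 CPM in the old one, below both mice without it (77.6 and 56.2 CPM). In ST the 4 stimulated mice were at 0.416, 25.6, 0 and 2.98 CPM at that time, again below both others, while in MPP the groups overlapped. Of all 10163 genes, 8.5% in LT and 8.39% in ST were likewise lower in all 4 mice with ligand. The difference of the changes at 8 h was -0.80 ± 3.04 in LT and -2.85 ± 3.10 in ST (log2, SE, edgeR, adjusted p = 1.0 for both).

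Tlr4, the signalling receptor for LPS, and its partner Ly96 stayed low and scattered. In MPP, where Tlr4 had a count in all 36 libraries, young mouse 1 had it at 32.1, 70.0, 30.3, 25.0, 1.90, 56.4 and 26.7 CPM from 0 to 12 h, young mouse 2 at 18.2, 12.8, 21.4, 17.9, 28.6, 15.1 and 23.3 CPM and young mouse 3 at 14.9, 12.0, 10.3, 6.65, 3.53, 5.38 and 3.04 CPM. In LT young mouse 1 was at 0 from 2 h on and young mouse 2 from 1 h on, after 72.8 and 48.5 CPM at 0.5 h, while young mouse 3 kept counts throughout and reached 86.3 CPM at 12 h. None of the 18 Tlr4 changes with ligand had an unadjusted p under 0.05 (edgeR, lowest 0.22). Without ligand Tlr4 at 8 h was at 80.6 CPM in LT, 126 in ST and 25.5 in MPP of young mouse 4 and at 31.4, 36.1 and 102 CPM in old mouse 4, and 0 of its changes passed.

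Ly96 was at 28.6 CPM or less in every library. In LT it was at 15.6, 6.12 and 6.83 CPM at 0 h in young mice 1, 2 and 3 and at 0, 0 and 5.47 CPM at 8 h, lower in each mouse, and this did not pass (log2 change -2.24 ± 1.98, SE, edgeR, adjusted p = 0.81). In MPP it was at 4.38, 3.76 and 2.49 CPM at 0 h and at 4.85, 3.95 and 2.93 CPM at 8 h. The lowest unadjusted p of its 18 changes with ligand was 0.22. Ly96 had the shortest transcript of the 6, of 632 bases against 1641 to 4077, and its CPM rests on correspondingly few counts.

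**Figure D5:**
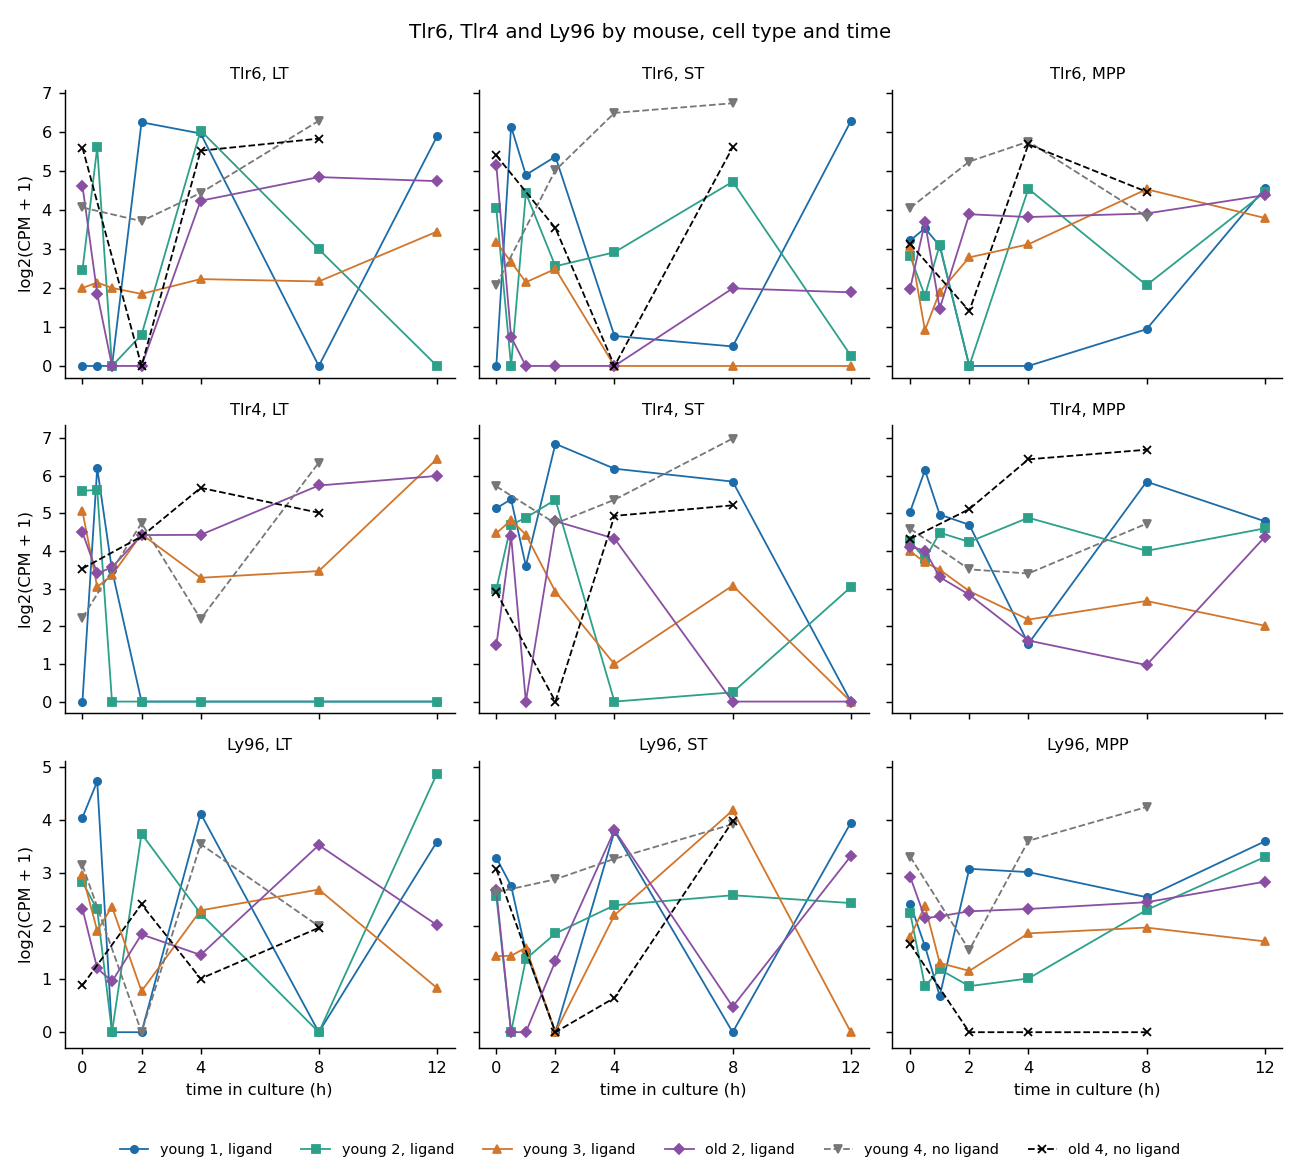
Tlr6, Tlr4 and Ly96 (rows) as log2(CPM + 1) on the vertical axis against time in culture in hours, in LT, ST and MPP; each line is 1 mouse, solid with ligand and dashed without. Values of 1 mouse move up and down from one time to the next, and lines with and without ligand cross in every panel.

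No receptor passed the test of a different course between cell types. Of 18 tests of a difference in the course between 2 cell types, 0 passed in edgeR and 0 in DESeq2, 1 had an unadjusted p under 0.05 in each, and 0.0% of all genes were called. With the block 0 passed as well, with 0.0% of genes called between LT and ST and between ST and MPP and 0.00731% between LT and MPP. The unadjusted one in edgeR was Tlr1 in LT against ST (unadjusted p = 0.039, adjusted p = 1.0). Over the 6 receptors the median log2 change at 2 h with ligand was 0.81 (LT), 1.25 (ST) and -0.05 (MPP), beside medians of -0.33, -0.22 and -0.21 over all genes tested. At 12 h their medians were 2.33, 1.53 and 2.16, beside -0.29, -0.41 and -0.25.

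The genes whose log2(CPM + 1) ran most like that of Cd14 over the 63 stimulated libraries of young mice were Irg1 (Pearson's r = 0.95), Tnf (0.92) and Cxcl2 (0.88), out of 8842 genes with a mean of at least 10 CPM. For Tlr1 they were Marco (0.85), a scavenger receptor, Fdps (0.79), an enzyme of the mevalonate pathway, and Il4i1 (0.78). Among the best matches of Tlr2 were Thbs1 (0.61) and Mrgpra2a (0.61). Those of Tlr4 were Tango6 (0.65), Tada3 (0.65) and Mrps11 (0.63), those of Tlr6 Malt1 (0.52), Nlrc4 (0.44) and Chchd4 (0.44), and those of Ly96 Commd8 (0.49), Mlx (0.48) and Ppp1r9b (0.47). The libraries share 3 mice, so these values describe likeness only and carry no test.

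Around the receptors, few other genes of the pathway passed. Of 16 adaptors and proximal kinases, among them Myd88, Tirap, Irak4 and Traf6, only Irak2 passed, in LT at 1, 2, 4 and 8 h by edgeR without a block. Irak2, a kinase that acts below Myd88, was at 6.61 ± 4.22 CPM in LT at 0 h and 152 ± 100.7 CPM at 2 h (SD, n = 3), a log2 change of 4.53 ± 0.90 (adjusted p = 0.0047). With the block it passed at all 6 times in LT, and in ST at 2 and 8 h. Of 8 other Toll-like receptors, 0 passed at a single time, and over the whole course Tlr3, which recognises double-stranded RNA, passed in LT (adjusted p = 0.029), with 21.9 ± 22.9 CPM at 0 h and 0.869 ± 1.505 CPM at 2 h. Of 9 receptor partners and chaperones and of 7 tested of 8 receptor-proximal inhibitors, 0 passed without the block. With the block over the whole course, which called 7.15%, 6.28% and 3.25% of all genes in the 3 cell types, Unc93b1, which carries Toll-like receptors of the endosome, passed in LT (adjusted p = 0.028), ST (adjusted p = 0.0044) and MPP (adjusted p = 1.4e-04), Hsp90b1, their chaperone, passed in LT (adjusted p = 0.013) and ST (adjusted p = 0.027), and Rab7b passed in LT (adjusted p = 0.017). Unc93b1 also rose with the block at 12 h in MPP (log2 change 1.65 ± 0.41, adjusted p = 0.027), where 1.1% of all genes were called. In the blocked test of with against without ligand, Hsp90b1 passed in ST at 8 h (log2 difference 2.71 ± 0.52, adjusted p = 0.0035, 0.347% of all genes called) and over all times together (adjusted p = 0.018, 0.264% called).

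Genes that NF-kB is known to turn on rose from 0 h with ligand in all 3 cell types. Of 8 such genes, 6 rose at 2 h with ligand in LT, 5 in ST and 5 in MPP by edgeR without a block, where 0.307%, 0.307% and 0.263% of all genes were called. These 8 genes were chosen with earlier results of these data known, so their count is not independent support for a response. Nfkbia, which encodes an inhibitor of NF-kB, was at 171 ± 49.1 CPM in LT at 0 h and 1673 ± 312 CPM at 2 h (SD, n = 3), and Nfkbiz at 11.6 ± 5.87 and 710.2 ± 71.5 CPM. In the same 2 h libraries Cd14 stood at 30.3 to 1274 CPM. These changes from 0 h hold culture and ligand together. At 2 h edgeR's unblocked test of with against without ligand called 0.0% of all genes in LT, 0.0139% in ST and 0.00694% in MPP. None of the 8 genes thus passed that test in LT.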

How the data were processed

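Expected counts per gene symbol were deposited by the authors, and the submitters' processing notes name RSEM and the build mm9 (versions not given in the sources used here); 89.5% of values are whole. The authors' expected counts carry no scaling for depth. Of 127 columns, 6 with 7 to 41 counts (under 1000, all of old mouse 2 LT, with 0 counts of the 6 receptors) were dropped, and technical repeats were summed to 108 libraries and rounded. The 0 h libraries of a mouse were read as its baseline whatever their treatment label. CPM is counts per 1e6 of the library. Floors of 3 counts cover counting error only, since reads carry no molecular identifiers.

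The main fits used edgeR 4.0.16 in R 4.3.3, with TMM factors, the filterByExpr filter and the 2-sided quasi-likelihood F test, and Benjamini-Hochberg adjustment over all genes within a comparison at 0.05, whatever n. Fits held 63 libraries (13678 genes) for young mice 1 to 3, 72 libraries (14401 genes) for courses with and without ligand, and 12 (11568 genes) and 18 libraries (12983 genes) at 0 h. Mouse is a block only where said. The labels give the mouse number, which pairs libraries: residuals of libraries of young mice 1, 2 and 3 correlated at a mean r of 0.191, 0.0678 and 0.407 within a mouse and -0.127, -0.0516 and -0.208 with other mice. Alternatives were DESeq2 1.42.0, its size factors, other filters, single repeats, other baselines and leaving out each mouse. Shares of all genes called are given for edgeR's main and blocked fits only, so counts of these alternatives stand without one. DESeq2 left 3 to 6 of 18 adjusted p-values of each test over all times within the ligand comparisons as NA, which are not counted as calls. On simulated data (13169 genes), 15 calls were made for LT at 2 h, with 0 false ones and 13% of the true log2 changes of 4 recovered. The course test made 38 calls, with 2 false ones and 35% of these changes recovered. True log2 changes of 2 at every time were recovered at 2% by the 2 h test and at 1% by the course test.

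The receptors, the lists of adaptors, other Toll-like receptors, partners, inhibitors, NF-kB response genes and cell type markers, and the tests were chosen with earlier results of these data known. Named were the 6 receptors, list members that passed (up to 4 a list by smallest p) and the 3 genes most like each receptor, of which 1 is not reported here. Promoters came from RefSeq (250 bases before to 50 after a start), lengths from GENCODE transcripts. Figures were drawn with matplotlib 3.10.9 in Python 3.11.15.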

Additional observations from a re-analysis of the deposited data

Results flagged for a closer look

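At 0 h, 18 groups of 4 young mice (6 receptors in 3 cell types) were searched for a sample far from the others. Of these groups, 3 held one. The chance rate of about 1 in 20 assumes normally distributed values and need not hold for CPM near 0. A group with 3 mice at 0 is flagged whatever count the other mouse has, as for Tlr1 in LT. Whether 3 of 18 groups is more than chance gives therefore cannot be told. Tlr1 in LT was at 19.0 CPM in young mouse 2 and at 0 in the other 3 mice, and its 2 technical repeats held 26.0 and 10.8 CPM. Tlr2 in ST was at 116 CPM in young mouse 1 against 43.5, 32.6 and 45.6 CPM, and its repeats held 12.6 and 184.5 CPM. Cd14 in LT was at 35.3 CPM in young mouse 4, which then had no ligand, against 0.488, 6.38 and 1.91 CPM in young mice 1, 2 and 3.

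Opposite directions were searched for in 162 pairs of groups of these receptors, and those found are given below. No share of all genes is given for such patterns, and how many chance alone would give was not tested. Tlr1 in MPP was higher at 8 h than at 0 h in all 4 mice with ligand and lower in both mice without, whose mean change was -2.43 CPM. The edgeR test of this difference gave an adjusted p of 1.0, and 0.81 with mouse as a block. Ly96 at 8 h with ligand was lower than at 0 h in LT of young mice 1, 2 and 3 (mean change -7.70 CPM) and higher in MPP of the same mice. The test of a different course of Ly96 in LT and MPP, over all times, gave an adjusted p of 1.0 in edgeR.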

How the results depend on the processing

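In edgeR without a block, 0 receptor tests passed in every comparison, and the counts that differed are these. With mouse as a replicate block, 4 course tests, 6 tests each in LT, ST and MPP with ligand, 6 without ligand at single times and 3 over all times together passed. DESeq2 called 2 for the course, 8 in LT, 7 in ST, 5 in MPP, 8 and 1 without ligand, and 3 for with against without ligand, all 3 of Tlr1 in LT or ST. Without a filter the counts were 1 for the course, 5 in LT, 1 in ST, 1 in MPP and 1 without ligand, with young mouse 4 added at 0 h 1 for the course, and in fits of the compared libraries alone 6 in MPP, of which 5 were Cd14 and 1 was Tlr2 at 2 h. Leaving out each mouse gave 0 to 3 for the course, 0 to 6 in LT, 0 to 6 in ST, 0 to 6 in MPP, and 0 to 6 and 0 to 2 without ligand; each upper value is without young mouse 3. The block changed no other call of a receptor. The cause of these differences was not tested. Cd14 kept its direction in all 18 changes with ligand and all 9 without under every alternative run, and no receptor result turned its direction past the threshold. Tlr1, Tlr6, Tlr4 and Ly96 were at 0 in 45, 21, 17 and 17 of 108 libraries, where levels under 3 counts cannot be told from 0 at this depth; the cause of the zeros was not tested.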
